A study of Mus musculus with 3 samples.

Results

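Macrophages rich in Saa3 transcripts were examined in single-cell RNA-Seq of a transplanted mouse lung 3 days after reperfusion. They were chosen by their transcripts. A kept cell had more than 200 genes and under 10% of mitochondrial unique molecular identifiers (UMIs, each of which tags 1 captured RNA molecule), with no upper limit. It was a member if 4 genes, among them Saa3, Serpinb2 and Ccl24, together made up at least 0.3% of its UMIs, Lyz2 at least 0.3%, S100a8 and S100a9 under 2%, and if it held at most 2 UMIs of Cd79a and Cd3e. Of the 9016 cells of the library 8514 were kept, and 498 of them met the rule, or 5.85% (95% exact Clopper-Pearson interval 5.36% to 6.37%). The 3 libraries together held 22265 cells. The levels of the genes in the rule are given as a description of the choice, not as a finding.

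The mice were 8 to 10 weeks old, and the labels gave the strain of every sample as C57BL/6J. The study's methods list its CD45.1 mice separately, as the congenic strain B6.SJL-Ptprca Pepcb/BoyJ. Left lungs of CD45.2 donors were kept for 60 minutes at 4 °C and 45 minutes at 28 °C and then transplanted into CD45.1 recipients. The transplant libraries were taken after 2 hours or 3 days of reperfusion, and the third library came from naive lungs without surgery. Cells of 2 mice were pooled for each library and sorted for CD45.1, which marks recipient cells in a graft. The same sort is described for the naive lungs, although naive mice hold no recipient cells. Each condition had 1 library, so no test across mice was possible. Every interval covers counting error, not the spread between mice or between cells.

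Macrophages enter an injured lung as monocytes from blood or arise from macrophages already in the tissue or in the spaces around it. Saa3 encodes a serum amyloid A protein that mouse macrophages make in the acute-phase response. Serpinb2 encodes plasminogen activator inhibitor 2, and Ccl24 encodes eotaxin-2, which attracts eosinophils through the receptor CCR3. Lyz2 encodes lysozyme and marks monocytes, macrophages and neutrophils.

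The files listed Saa3 as ENSMUSG00000040026 (chr7:46711998-46715700, minus strand), Serpinb2 as ENSMUSG00000062345 (chr1:107511423-107535478, plus strand) and Ccl24 as ENSMUSG00000004814 (chr5:135569937-135573049, minus strand), with positions from GENCODE vM21 on GRCm38, the assembly also called mm10. RefSeq promoters on GRCm38.p6, from 250 bases before a gene's start to 50 after it, were at hand for 2 of the 4 rule genes, Saa3 and Serpinb2. They are shown with those of Il6, Cxcl1, Cxcl2 and Cxcl3, genes for secreted inflammatory signals whose levels in these cells are described further on. Capitals mark matches, on either strand, to the AP-1 motif TGANTCA, the C/EBP motif TTNNGNAA or the NF-kB motif.
Saa3, chr7:46715627-46715926, strand -: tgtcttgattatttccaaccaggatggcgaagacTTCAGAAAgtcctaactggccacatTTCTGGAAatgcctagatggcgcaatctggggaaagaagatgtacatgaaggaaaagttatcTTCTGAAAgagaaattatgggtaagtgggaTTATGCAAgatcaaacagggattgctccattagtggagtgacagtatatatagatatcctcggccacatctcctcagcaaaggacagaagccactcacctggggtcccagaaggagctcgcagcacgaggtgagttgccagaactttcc
Serpinb2, chr1:107511173-107511472, strand +: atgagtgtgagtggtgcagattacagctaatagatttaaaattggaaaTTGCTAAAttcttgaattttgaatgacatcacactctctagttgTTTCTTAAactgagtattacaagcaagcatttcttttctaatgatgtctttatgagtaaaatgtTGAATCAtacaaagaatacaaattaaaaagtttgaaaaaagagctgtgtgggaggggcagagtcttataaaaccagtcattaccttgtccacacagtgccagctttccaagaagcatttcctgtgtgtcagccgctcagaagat
Il6, chr5:30012864-30013163, strand +: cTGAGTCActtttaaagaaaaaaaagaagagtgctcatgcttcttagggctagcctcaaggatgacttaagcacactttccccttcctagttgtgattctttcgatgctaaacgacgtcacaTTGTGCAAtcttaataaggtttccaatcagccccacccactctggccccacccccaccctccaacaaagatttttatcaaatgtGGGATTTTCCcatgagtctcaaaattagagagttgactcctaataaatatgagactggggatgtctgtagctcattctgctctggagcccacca
Cxcl1, chr5:90890995-90891294, strand +: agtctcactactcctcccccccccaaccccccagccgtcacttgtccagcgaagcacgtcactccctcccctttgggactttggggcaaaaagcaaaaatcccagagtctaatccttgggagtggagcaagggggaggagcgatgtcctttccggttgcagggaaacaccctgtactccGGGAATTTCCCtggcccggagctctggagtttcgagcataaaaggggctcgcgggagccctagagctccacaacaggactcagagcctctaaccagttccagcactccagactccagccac
Cxcl2, chr5:90903649-90903948, strand +: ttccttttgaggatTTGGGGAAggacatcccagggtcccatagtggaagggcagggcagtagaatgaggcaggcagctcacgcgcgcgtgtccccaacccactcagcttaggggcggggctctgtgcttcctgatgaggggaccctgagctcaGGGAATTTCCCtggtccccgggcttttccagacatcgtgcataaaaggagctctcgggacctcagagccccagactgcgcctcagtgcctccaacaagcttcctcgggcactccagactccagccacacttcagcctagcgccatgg
Cxcl3, chr5:90785851-90786150, strand +: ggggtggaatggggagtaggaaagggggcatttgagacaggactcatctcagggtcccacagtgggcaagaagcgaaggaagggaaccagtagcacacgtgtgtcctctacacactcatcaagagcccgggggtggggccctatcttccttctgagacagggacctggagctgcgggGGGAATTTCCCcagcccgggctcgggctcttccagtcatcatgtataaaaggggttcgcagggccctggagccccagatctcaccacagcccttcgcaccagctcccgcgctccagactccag
The C/EBP motif, named for a family of factors that includes the product of Cebpb, matched at 4 places in the Saa3 promoter, and Saa3 had no match to the other motifs. Serpinb2 had 1 AP-1 match and 2 C/EBP matches. Il6 had 1 match to each of the 3 motifs. In Cxcl1, Cxcl2 and Cxcl3, neighbours on chromosome 5, 2 overlapping NF-kB matches lay on opposite strands of the same 11 bases, which read the same in all of them. Of 32851 promoters in the table, 7.81% held an AP-1 match, 40.7% a C/EBP match and 4.51% an NF-kB match. A match describes the letters in the window and does not show that a factor binds there.

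The 4 rule genes were far from equal in the members. Saa3 supplied 61.3% of their UMIs for the 4 genes, Serpinb2 12.3% and Ccl24 5.25%. Summed over the 498 cells and divided by all of their 5358040 UMIs, Saa3 stood at 9252 UMIs per 1000000 (counts per 1000000, CPM; 95% exact Poisson interval 9171 to 9334), Serpinb2 at 1853 CPM (1817 to 1890) and Ccl24 at 792 CPM (769 to 816). Because a UMI tags a molecule at 1 end, CPM is not divided by gene length. Saa3 had a UMI in 93.6% of members, Serpinb2 in 73.3% and Ccl24 in 68.5%. In B cells of the same library, which should lack these transcripts, the shares were 29.6%, 7.42% and 2.05%, at a median of 5103 UMIs per cell against 9858.5 in members. All 4 genes were detected together in 234 members, 3 of them in 190, 2 in 58 and a single gene in 16. From cell to cell Saa3 ranged from 0 to 60930 CPM, with a median of 5304 CPM and quartiles of 1434 and 14827 CPM. The corresponding median was 540 CPM for Serpinb2 and 222 CPM for Ccl24.

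The other kept cells under the same limits for Lyz2, lymphocyte and neutrophil transcripts, but with under 0.3% of UMIs on the 4 genes, served for comparison. These 1548 other Lyz2 cells were divided into 152 C1q macrophages (at least 0.3% of UMIs on C1qa, C1qb and C1qc), 647 Ly6c2/Ccr2 monocytes (at least 0.1% on Ly6c2 and Ccr2) and 749 remaining Lyz2 cells. The median share of UMIs on the 4 genes was 1.14% in members, with a range of 0.304% to 7.51%, and 0.0101% in the other Lyz2 cells. The limit did not fall in a gap, since 36 cells lay between 0.25% and 0.3% and 29 members between 0.3% and 0.35%. Another 127 kept cells reached the share of the 4 genes but failed a further condition: 104 had too little Lyz2, 22 too many lymphocyte UMIs and 25 too many neutrophil UMIs, with 24 failing on more than one. Scrublet called 6 members doublets, or 1.20% (95% exact Clopper-Pearson interval 0.443% to 2.60%), against 3.30% of all kept cells.

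**Figure D1:**
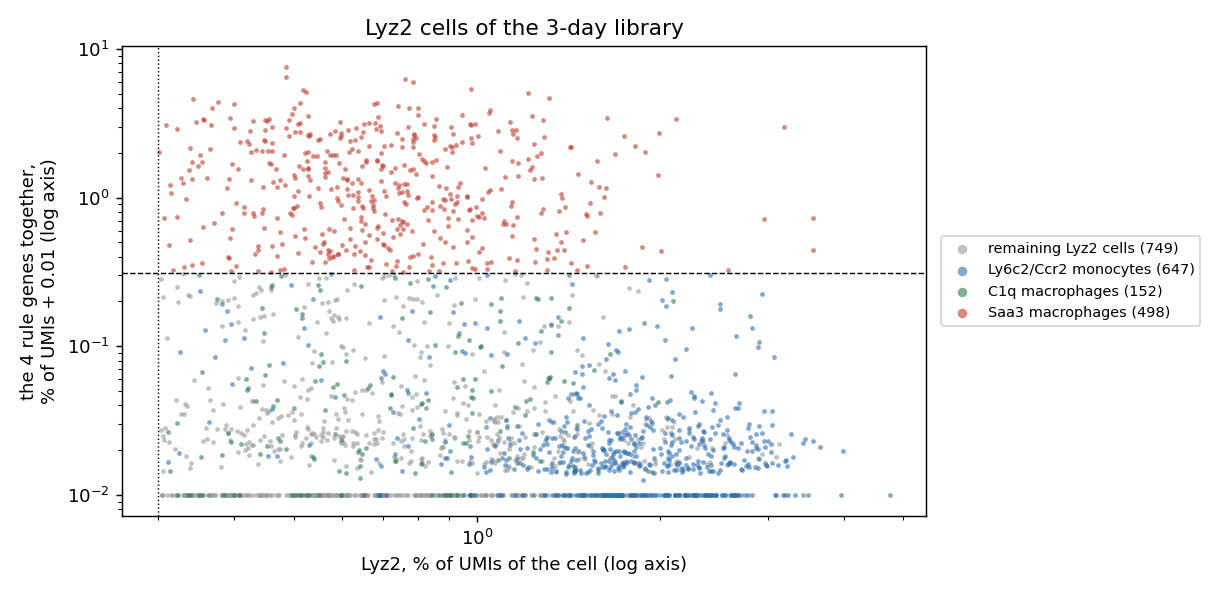
Share of UMIs on Lyz2 (horizontal, log axis) and on the 4 rule genes with 0.01 added (vertical, log axis) in each Lyz2 cell of the 3-day library, coloured by set. The dashed and dotted lines mark the limits of 0.3%. The 498 Saa3 macrophages lie above the dashed line, and cells lie on both sides of it without a gap.

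The same rule found 2 cells among 2628 kept cells of the naive library and 1 among 10283 at 2 hours. Among Lyz2 cells that met the other limits, the share was 24.3% at 3 days (498 of 2046 cells, 95% exact Clopper-Pearson interval 22.5% to 26.3%), 0.501% in naive lungs (2 of 399 cells, 0.0608% to 1.80%) and 0.340% at 2 hours (1 of 294 cells, 0.00861% to 1.88%). The libraries differed in depth, with medians of 13357.5, 22494 and 1661 UMIs per Lyz2 cell. After every cell had been thinned to 1000 UMIs before the rule was applied, 489 of 8280 cells met it at 3 days, 3 of 2581 in naive lungs and 1 of 3992 at 2 hours, where 6291 cells were too shallow to be thinned. The rule was thus met at 3 days by many cells and by almost none in the other libraries, which differ also in mice and preparation. In a graft the CD45.1 sort leaves out cells of the donor lung, a division that naive lungs do not have. The effects of the sort, mice, preparation and reperfusion time cannot be told apart. In the naive library the 2 cells held 336 and 95 UMIs of Saa3 and 136 and 116 UMIs of Prg4. The cell at 2 hours held 92 UMIs of Saa3 and 8 of Prg4 among 1862. Over all Lyz2 cells Saa3 was at 1937 CPM at 3 days (95% exact Poisson interval 1921 to 1954), at 46.0 CPM in naive lungs (41.8 to 50.5) and at 185 CPM at 2 hours (150 to 226). At 2 hours 92 of the 96 UMIs of Saa3 came from the 1 cell that met the rule, and most of the 434 in naive lungs came from the 2 cells there. Among genes the rule did not use, Il6 was at 175 CPM at 3 days (170 to 180), 5.62 CPM in naive lungs (4.21 to 7.35) and 13.5 CPM at 2 hours (5.44 to 27.9). Other genes that were higher in members than in the other Lyz2 cells at 3 days had more in the naive Lyz2 cells than in all Lyz2 cells at 3 days. The part of the sort in this was not tested. Slc7a2 was at 544 CPM in naive lungs and 25.6 CPM at 3 days, Il1a at 238 and 85.5 CPM, and Ltc4s at 197 and 115 CPM. Prg4 was at 26.8 and 27.5 CPM, and nearly all of its 253 UMIs in naive lungs came from the 2 cells that met the rule. Ccl2 and Cxcl3, also higher in members, had more in Lyz2 cells at 2 hours than at 3 days. Ccl2 was at 352 against 223 CPM and Cxcl3 at 290 against 215 CPM. Between libraries 1 to 23 cell barcodes were shared, none of them by a member and a cell of another library.

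The label of macrophage was checked against marker lists. Of 10 macrophage markers, 5 were at least 2-fold higher in members than in the other Lyz2 cells and 2 at least 2-fold lower, where a fold is the ratio of CPM with 10 added to each. Of all 10377 genes compared, 4.71% were higher and 4.19% lower by this measure. Itgam, which encodes the integrin chain CD11b, stood at 2291 CPM in members and 562 CPM in the other Lyz2 cells, and Adgre1, which encodes F4/80, at 354 and 221 CPM. Csf1r, the receptor for colony-stimulating factor 1, was at 421 and 613 CPM, and Cd68 was at 122 and 322 CPM. Of 9 classical monocyte markers 8 were at least 2-fold lower, Ly6c2 at 23.5 against 460 CPM and Plac8 at 129 against 2182 CPM. Of 9 nonclassical monocyte markers 6 were lower, among them Ace at 17.5 against 164 CPM, while Cd36 was higher at 748 against 128 CPM. These directions depended on the cells compared with. Against C1q macrophages, over the same genes, the median log2 ratio was -0.66 for macrophage, 0.41 for classical monocyte and 0.88 for nonclassical monocyte markers, where against all other Lyz2 cells it was 0.96, -1.44 and -2.18. The list of neutrophil markers summed to 1396 CPM in members against 151577 CPM in neutrophils, and that of B cells to 105 against 6827 CPM. The rule capped S100a8, S100a9 and Cd79a in members, so these low sums follow in part from the choice and are no check of the label.

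Markers of particular lung macrophages were uneven. Of 13 alveolar macrophage markers Ear1, Krt79, Krt19, Cidec and Fabp1 had no UMI in members, which at their depth allows up to 0.560 CPM each. Siglecf was at 1.12 CPM and Car4 at 1.31 CPM, and the list summed to 133 CPM, most of it from Marco. Marco, a scavenger receptor, was at 88.8 CPM in members and 0.926 CPM in the other Lyz2 cells, but just 18 members held a UMI of it and 2 of them held at least as many as the rest together. Markers of macrophages of the pleural and peritoneal cavities summed to 404 CPM in members, 29.0 CPM in C1q macrophages, 106 CPM in Ly6c2/Ccr2 monocytes and 83.9 CPM in remaining Lyz2 cells. None of the 12 was at 0 in members. Of the 7 with enough UMIs to compare, 5 were at least 2-fold higher in members than in the other Lyz2 cells and 2 differed by less. A gene high in members could reach the limit of 50 UMIs through them alone, so this count follows in part from the filter. The median log2 ratio was 1.58 over these 7 genes and 0.71 with no filter on UMIs. Prg4, which encodes lubricin, was the most abundant of these markers at 131 CPM against 1.81 CPM, and 12 members held at least as many of its UMIs as the rest together. Naip1 was at 40.9 against 2.36 CPM, Rarb, a retinoic acid receptor, at 26.3 against 2.18 CPM, Icam2 at 75.03 against 15.4 CPM and Selp at 17.2 against 2.08 CPM. Gata6, which encodes the transcription factor of these cavity macrophages, had 40 UMIs in 26 members, or 7.47 CPM, against 0.555 CPM. Prg4 had a UMI in 24.9% of members against 0.737% of B cells, so most members carried none at this depth. Mesothelial markers summed to 0.187 CPM in members, with 6 of 7 at 0. Whether the cavity macrophage genes bear on where the cells came from was not tested.

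Across all genes outside the rule with at least 50 UMIs over both sets, 489 of 10377 were at least 2-fold higher in members than in the other Lyz2 cells, or 4.71%, and 435 were at least 2-fold lower, or 4.19%. The median log2 ratio over these genes was -0.03. Of the 12 genes with the largest ratios, 3 encode cytokines, 2 encode neutrophil-attracting chemokines and others encode enzymes, receptors and secreted proteins. In this comparison the largest was that of Cd5l, a secreted macrophage protein of the scavenger receptor family, at 346 CPM (95% exact Poisson interval 331 to 362) against 6.80 CPM, a log2 ratio of 4.41. Il6, which encodes interleukin 6, was at 765 CPM (742 to 789) against 28.6 CPM (26.3 to 30.9), a log2 ratio of 4.33. It had a UMI in 61.8% of members, 12.9% of the other Lyz2 cells and 5.68% of B cells, and 32 members held at least as many as the rest together. The rank of Cd5l depended on the setting. Against C1q macrophages alone the log2 ratio was 3.09 for Cd5l and 4.15 for Il6. With an offset of 1 CPM it was 5.48 for Cd5l and 5.56 for Prg4. Cxcl3 was at 883 against 49.99 CPM and Cxcl1 at 998 against 67.6 CPM, with 30 and 41 members holding at least as many of the UMIs as the rest together. Il1a, which encodes interleukin 1 alpha, was at 349 against 20.2 CPM, and Lif, leukemia inhibitory factor, at 211 against 14.1 CPM. Others were Prg4, Ednrb (endothelin receptor B, 339 against 21.2 CPM), Ltc4s (leukotriene C4 synthase, 433 against 36.2 CPM), Fcna (ficolin A, 108 against 2.45 CPM) and Slc7a2 (a transporter of arginine, 115 against 3.33 CPM). Those named were also higher in members than in each of the 3 divisions of the other Lyz2 cells.

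**Figure D2:**
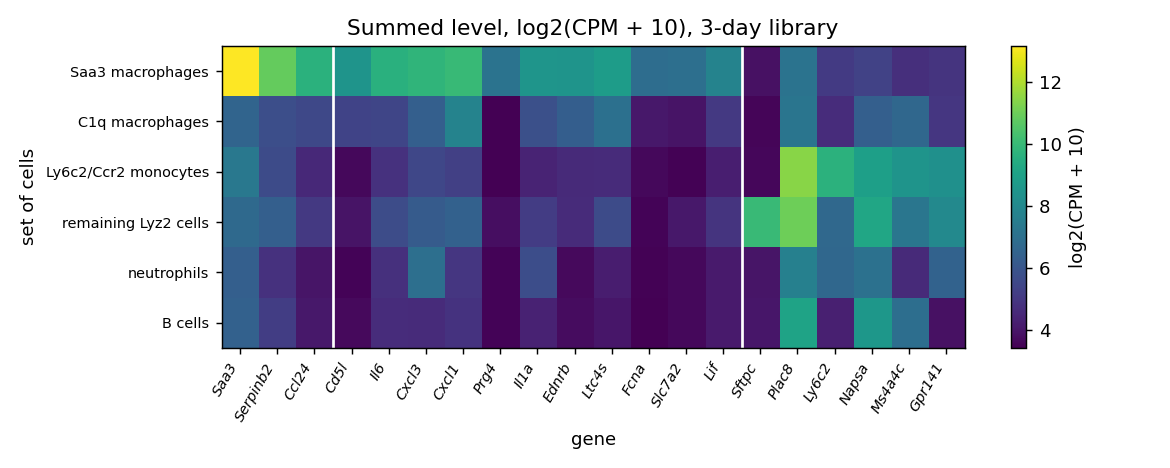
Summed level of 3 of the rule genes (left), 11 of the 12 genes with the largest ratio (middle) and the 6 with the smallest (right) in 6 sets of cells of the 3-day library, as log2 of CPM with 10 added. The top row is brightest for the first 14 genes, and Plac8 and Ly6c2 are brightest in Ly6c2/Ccr2 monocytes.

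The 6 genes with the smallest ratios were Sftpc, Plac8, Ly6c2, Napsa, Ms4a4c and Gpr141. Sftpc, a surfactant gene of alveolar type 2 epithelium, was at 4.48 CPM in members and 374 CPM in the other Lyz2 cells, but a single cell of the latter held at least as many of its 8080 UMIs as all others together. Napsa was at 29.9 against 461 CPM, Ms4a4c at 16.6 against 241 CPM and Gpr141 at 19.0 against 251 CPM. Outside ribosomal protein and mitochondrial genes, the most abundant transcripts of members were Gm42418, a gene model that overlaps ribosomal RNA, at 73173 CPM, Fn1 at 11392 CPM, Actb at 10335 CPM, Fth1 at 9928 CPM, Tmsb4x at 9298 CPM and Saa3. Fn1, which encodes fibronectin, was at 2102 CPM in the other Lyz2 cells and had a UMI in 98.8% of members against 35.6% of B cells. Ribosomal protein genes took 8.12% of the UMIs of members and 16.5% of those of the other Lyz2 cells.

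Most of the chemokine genes compared were higher in members. Of 9 CC chemokine genes compared besides Ccl24, 6 were at least 2-fold higher in members and none lower, with a median log2 ratio of 1.42 against -0.03 over all genes. Genes high in members could pass the limit on UMIs through them alone, and with no filter on UMIs the CC chemokine median was 1.11. Ccl6 was at 4532 against 1071 CPM, Ccl9 at 1857 against 765 CPM, Ccl4 at 511 against 69.3 CPM and Ccl3 at 232 against 49.7 CPM. In neutrophils Ccl3 was at 307 CPM, while Ccl6, Ccl9 and Ccl4 were lower there than in members. Ccl2 and Ccl7, ligands of CCR2 that draw monocytes, were at 458 against 165 CPM and at 229 against 52.1 CPM. A UMI of Ccl2 was found in 52.6% of members, and 28 of them held at least as many as the rest together. For Ccl7 these values were 29.5% and 14 members. Ccl12, another ligand of CCR2, was at 5.04 against 6.16 CPM. Ccr2 itself was at 297 CPM in members against 820 CPM in the other Lyz2 cells. Of 8 CXC chemokine genes 5 were at least 2-fold higher, none was lower, and the median log2 ratio was 2.25. Over the same genes the median against C1q macrophages was 0.52 for CXC and 1.11 for CC chemokines. Cxcl2, a ligand of CXCR2 on neutrophils, was at 5418 against 836 CPM and had a UMI in 97.6% of members and 45.4% of B cells. Pf4, which encodes platelet factor 4 and is also made by macrophages, was at 796 against 89.1 CPM (549 CPM in C1q macrophages). Platelet genes Tubb1 and Gp1bb had no UMI in members, and Itga2b was at 2.24 CPM.

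**Figure D3:**
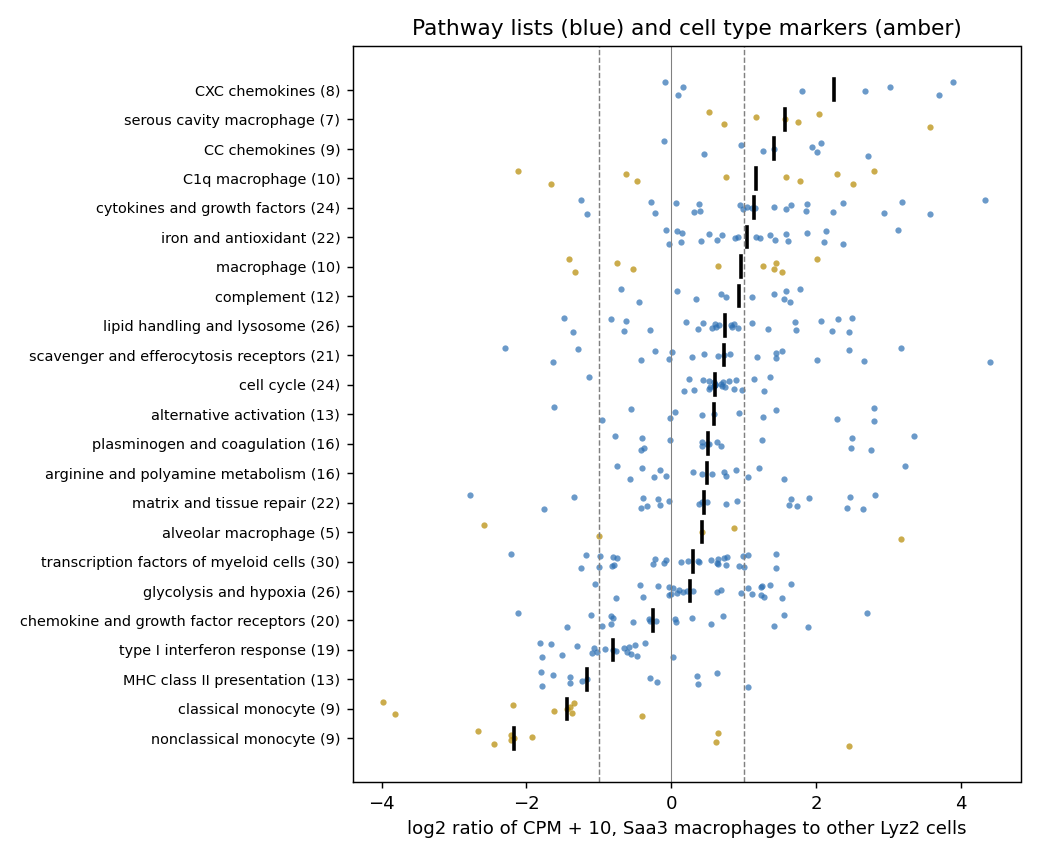
Log2 ratio of CPM with 10 added, Saa3 macrophages to other Lyz2 cells, for each compared gene of pathway lists (blue) and marker lists (amber). Black bars are medians, the number of genes is in brackets, and dashed lines mark 2-fold. CXC chemokines have the highest median in this comparison, 2.25, and nonclassical monocyte markers the lowest, -2.18.

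Among cytokines and growth factors 14 of 24 genes were at least 2-fold higher in members and 2 lower, with a median log2 ratio of 1.14. Il1b was at 3516 against 1702 CPM, Tnf at 267 against 49.1 CPM and Osm, oncostatin M, at 279 against 120 CPM. C1q macrophages had 275 CPM of Osm. In neutrophils Il1b was at 8168 CPM and Tnf at 141 CPM. Il10 was at 169 against 24.5 CPM, Il1rn, which encodes the interleukin 1 receptor antagonist, at 420 against 187 CPM (663 CPM in C1q macrophages), and Areg, amphiregulin, at 221 against 53.5 CPM. Inhba, an activin subunit, was at 108 against 29.5 CPM, and Tnfsf9, a ligand of the receptor 4-1BB, at 289 against 29.1 CPM. Tgfb1 was lower, at 185 against 450 CPM. Il12b had no UMI in members. Of 20 receptor genes 4 were higher and 3 lower: the formyl peptide receptors Fpr1 (145 against 13.7 CPM) and Fpr2 (211 against 49.8 CPM) and the complement receptors C5ar1 (662 against 242 CPM) and C3ar1 (266 against 83.5 CPM, but 383 CPM in C1q macrophages) were higher, and Ccr2, Cx3cr1 (56.6 against 280 CPM) and Csf2rb (183 against 404 CPM) were lower. Neutrophils, which were not in this comparison, had 161 CPM of Fpr1, 217 CPM of Fpr2, 817 CPM of C5ar1 and 7.88 CPM of C3ar1.

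Genes of a list for arginine and polyamine metabolism, which also held genes that act on proline, were mixed. Of 16 compared, 4 were at least 2-fold higher and none lower, with a median log2 ratio of 0.49. Among these were Slc7a2, Odc1, which makes putrescine from ornithine, at 661 against 218 CPM (800.04 CPM in C1q macrophages), and P4ha1, a collagen prolyl hydroxylase subunit, at 108 against 46.3 CPM. Oaz1, the antizyme that curbs ornithine decarboxylase, was at 658 against 694 CPM. Nos2, the inducible nitric oxide synthase, had no UMI in members and 0.185 CPM in the other Lyz2 cells. Genes often listed for alternative activation went in both directions, 5 of 13 at least 2-fold higher and 1 lower. Mrc1, the mannose receptor CD206, was at 329 against 131 CPM, while Chil3 was lower at 346 against 1086 CPM. Both directions turned against C1q macrophages, which had 738 CPM of Mrc1 and 187 CPM of Chil3. Retnla was at 103 against 6.34 CPM, but 19 members held a UMI of it and 2 held at least as many as the rest together. Among acute-phase genes outside the rule none was at least 2-fold higher. Saa1 and Saa2 had no UMI in members, and Hp, haptoglobin, was lower at 251 against 675 CPM, as was Lcn2 at 19.6 against 63.8 CPM. Against C1q macrophages both turned, with Hp at 71.8 CPM and Lcn2 at 3.82 CPM there, and the median log2 ratio of the 3 acute-phase genes compared was 1.10 in place of -1.32. In the list for plasminogen and coagulation 5 of 16 genes were higher and none lower, among them Serpinb6a (206 against 21.8 CPM), coagulation factor F7 (123 against 13.6 CPM) and tissue factor F3 (52.1 against 1.06 CPM).

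Lysosomal proteases and lipid genes were higher in part. In the lipid and lysosome list 9 of 26 genes were at least 2-fold higher and 2 lower, with a median log2 ratio of 0.74. The cathepsin genes Ctsb (4332 against 1310 CPM), Ctsd (1982 against 395 CPM) and Ctsl (1261 against 293 CPM) were higher, as were lipoprotein lipase, Lpl (781 against 130 CPM), the fatty acid receptor Cd36 and the cholesterol exporter Abca1 (722 against 147 CPM). Tyrobp, a signalling adaptor, and Lgals3, galectin-3, were lower at 986 against 2759 CPM and 699 against 1813 CPM. Apoe was at 1667 against 2564 CPM. Of 21 scavenger and efferocytosis receptor genes 9 were higher and 3 lower, with Olr1, a receptor for oxidized lipoprotein, at 516 against 72.9 CPM, Msr1 at 416 against 147 CPM, Clec4d at 621 against 220 CPM and Mertk, a receptor for dying cells, at 44.0 against 8.79 CPM. In neutrophils Clec4d was at 1781 CPM, Olr1 at 69.1 CPM and Msr1 at 12.8 CPM. Havcr2, which encodes TIM-3, was at 12.7 against 101 CPM. Of 12 complement genes 6 were higher and none lower, including C1qa (1124 against 369 CPM) and properdin, Cfp (473 against 144 CPM). Their median log2 ratio was 0.94 against the other Lyz2 cells and -0.22 against C1q macrophages, which were chosen for C1q and had 2814 CPM of C1qa.

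Among matrix and repair genes 8 of 22 were at least 2-fold higher and 3 lower. Besides Fn1, the syndecans Sdc3 (709 against 92.3 CPM) and Sdc4 (382 against 95.1 CPM), the protease inhibitors Timp1 (167 against 22.1 CPM) and Timp2 (536 against 76.8 CPM) and the membrane protease Mmp14 (158 against 43.1 CPM) were higher. Tgfbi (262 against 906 CPM), Vcan (204 against 530 CPM) and Mmp8 (11.4 against 137 CPM) were lower. Against C1q macrophages the direction turned for Mmp14 (237 CPM there), Sdc4 (448 CPM), Vcan (89.7 CPM) and Mmp8 (2.67 CPM). Of 22 iron and antioxidant genes 11 were higher and none lower, with a median log2 ratio of 1.05. Hmox1, heme oxygenase 1, was at 853 against 156 CPM, mitochondrial superoxide dismutase, Sod2, at 847 against 185 CPM, the cystine transporter gene Slc7a11 at 478 against 122 CPM and metallothionein Mt2 at 387 against 35.4 CPM. Neutrophils had 1277 CPM of Slc7a11, 83.5 CPM of Hmox1, 211 CPM of Sod2 and 6.14 CPM of Mt2. In glycolysis and hypoxia 9 of 26 were higher and 1 lower, with a median log2 ratio of 0.26. Hif1a was at 622 against 257 CPM, Hk2, a hexokinase, at 157 against 48.0 CPM and Ldha at 521 against 235 CPM, while Gapdh was at 779 against 794 CPM.

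Genes for antigen presentation and the interferon response were lower in part. Of 13 genes for MHC class II presentation 7 were at least 2-fold lower in members and 1 higher, with a median log2 ratio of -1.16. Over the same genes it was -1.19 against C1q macrophages and -0.18 against Ly6c2/Ccr2 monocytes. Cd74, the invariant chain, was at 596 against 2106 CPM, H2-Aa at 447 against 1011 CPM and H2-Ab1 at 367 against 987 CPM. The costimulatory gene Cd80 was the one that was higher, at 183 against 82.2 CPM. B cells held 8983 CPM of Cd74 and were above both sets in 11 of the 13 genes. B cells make these transcripts themselves, so subtracting their CPM set most of the genes to 0 in both sets by construction, and the resulting median log2 ratio of 0 says nothing on free RNA, whose part was not tested. Of 19 type I interferon response genes 8 were lower and none higher, with a median log2 ratio of -0.81. Ifitm3 was at 1252 against 2548 CPM (795 CPM in C1q macrophages), Ifi204 at 81.7 against 250 CPM, Irf7 at 17.5 against 86.8 CPM and Isg15 at 15.7 against 71.2 CPM. Of 30 myeloid transcription factor genes 4 were higher and 3 lower. Bhlhe40 was at 364 against 127 CPM and Id2 at 611 against 289 CPM, and Runx3 was lower at 54.3 against 288 CPM. In C1q macrophages Bhlhe40 was at 171 CPM, Id2 at 575 CPM and Runx3 at 258 CPM. The median log2 ratio of the list was 0.30 against the other Lyz2 cells and -0.07 against C1q macrophages. Cebpb, whose motif was marked in the promoters above, was at 2679 against 2042 CPM.

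Cell cycle transcripts were counted per cell. At least 3 UMIs of Mki67 and Top2a together were found in 31 of the 498 members, or 6.22% (95% exact Clopper-Pearson interval 4.27% to 8.72%), in 20 of the 152 C1q macrophages, or 13.2% (8.23% to 19.6%), and in 5 of the 647 Ly6c2/Ccr2 monocytes, or 0.773% (0.251% to 1.79%). Depth was lowest in members among these sets, with medians of 9858.5, 17115.5 and 17576 UMIs per cell. Of 24 cell cycle genes 3 were at least 2-fold higher in members than in the other Lyz2 cells, among them Mki67 (42.4 against 11.5 CPM) and Top2a (41.2 against 9.95 CPM), and 1 was lower, Hmgb2 (152 against 346 CPM).

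Fewer genes differed by 2-fold between members and C1q macrophages than between members and Ly6c2/Ccr2 monocytes. Against C1q macrophages 341 of 8259 genes were at least 2-fold higher in members, or 4.13%, and 224 lower, or 2.71%. Against the Ly6c2/Ccr2 monocytes 702 of 9520 were higher, or 7.37%, and 528 lower, or 5.55%. Ccl2 and Ccl7 were not higher than in C1q macrophages, which had 543 and 314 CPM. Il1b, at 3289 CPM, and Il10, at 144 CPM, were also close to the levels of members, and the median log2 ratio of the cytokine list was 0.15 in this comparison. C1qa was at 2814 CPM and Apoe at 10433 CPM in C1q macrophages. MHC class II genes set the sets apart, with Cd74 at 5485 CPM and H2-Aa at 3064 CPM in C1q macrophages. Il6 (33.6 CPM in C1q macrophages), Cxcl3 (73.3 CPM), Cd5l (31.7 CPM) and Prg4 (0.764 CPM) remained higher in members. The limits used C1q, Ly6c2 and Ccr2 to make these sets, so differences in those genes follow in part from the choice.

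Antibody counts of the same cells gave a readout that the rule did not use. The 3-day library held counts for 277 antibodies, and 5 of them, against CD49f, CD44, ITGB7, Mac2 and CD45R, took 98.5% of 1248913 counts. CD49f, integrin alpha 6, had a median of 101.5 counts per cell in members (quartiles 42 and 221). The median was 216.5 in C1q macrophages, 20 in Ly6c2/Ccr2 monocytes, 6 in remaining Lyz2 cells and 22 in neutrophils. Its gene Itga6 was at 79.3 CPM in members, 184 CPM in C1q macrophages, 10.9 CPM in Ly6c2/Ccr2 monocytes, 8.17 CPM in remaining Lyz2 cells and 6.599 CPM in neutrophils, which by the antibody stood above the remaining Lyz2 cells. CD44, a receptor for hyaluronan, had medians of 78 counts in members, 69.5 in C1q macrophages, 44 in Ly6c2/Ccr2 monocytes and 5 in B cells. Mac2, which is galectin-3, had medians of 24, 81, 27 and 5 counts in these sets. ITGB7, integrin beta 7, was the antibody that was lowest in members relative to monocytes, with a median of 3 counts against 63, and Itgb7 was at 43.3 against 209 CPM. CD45R, a B cell form of CD45, had a median of 0 in members and 17 in B cells.

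The 9 isotype control antibodies, which have no target in these cells, also had more counts in members. Their sum averaged 9.18 counts per member and 7.30 per C1q macrophage, against 1.11 per Ly6c2/Ccr2 monocyte and 0.554 per neutrophil. Mean CD49f counts were 20.0 times the isotype sum in members, 42.9 times in C1q macrophages and 27.9 times in Ly6c2/Ccr2 monocytes, so relative to the isotype controls CD49f was lowest in members among these 3 sets. The order of CD44 turned on this scale, at 9.97 times the isotype sum in members, 11.7 times in C1q macrophages, 45.8 times in Ly6c2/Ccr2 monocytes and 10.7 times in B cells. Mac2 was at 4.00 times in members, 15.2 times in C1q macrophages and 27.3 times in Ly6c2/Ccr2 monocytes. Mean ITGB7 counts were 0.816 times the isotype sum in members. The part of unspecific antibody binding in the higher counts of members was not tested. CD11b had 0 antibody counts in members although Itgam RNA was abundant, so a count near 0 in this panel does not show that a protein is absent.

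**Figure D4:**
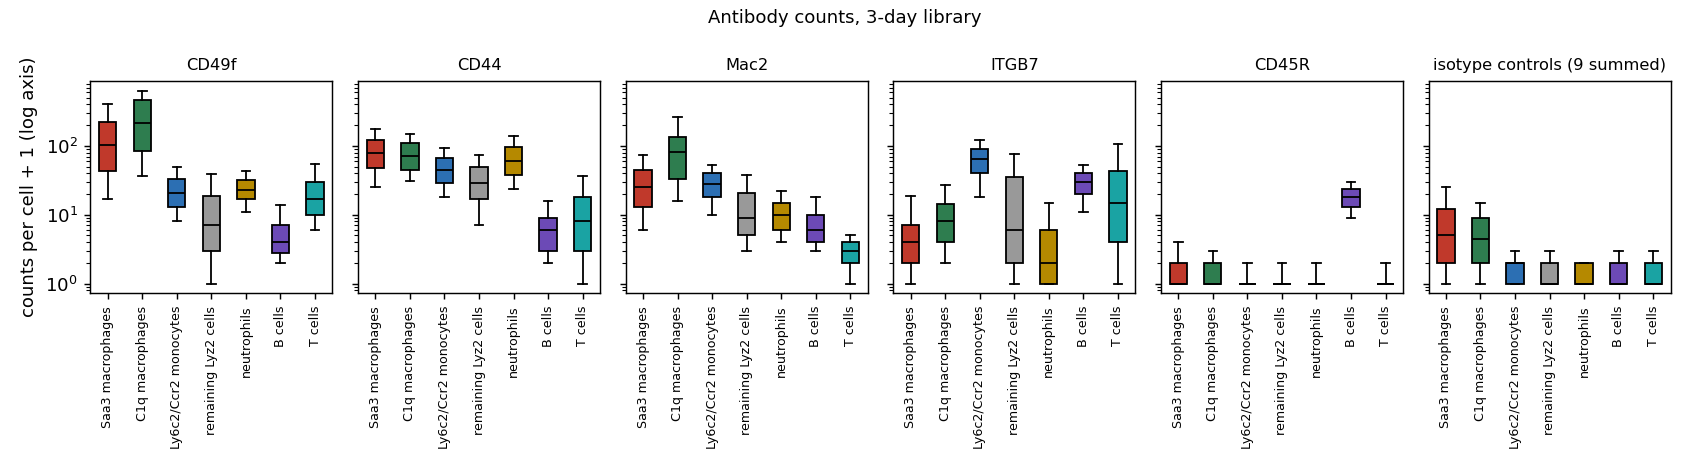
Antibody counts per cell with 1 added (log axis) in 7 sets of cells of the 3-day library for the 5 antibodies with most counts and the sum of 9 isotype controls. Boxes are quartiles, black lines medians and whiskers the 10th and 90th percentiles. CD49f and the isotype controls are highest in C1q macrophages and in Saa3 macrophages, and ITGB7 is highest in Ly6c2/Ccr2 monocytes.

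The members varied in which rule gene prevailed. Saa3 had the most UMIs of the 4 genes in 314 members, Serpinb2 in 46 and Ccl24 in 22. The levels of rule genes in these groups follow from the division, and the genes named here were chosen after their values had been seen. Prg4 was at 191 CPM in Saa3-led, 57.9 CPM in Serpinb2-led and 0 CPM in Ccl24-led cells, with a UMI in 33.4%, 26.1% and 0% of them. Cd5l followed the same order, at 441, 308 and 7.19 CPM, as did Icam2 at 95.9, 53.9 and 25.2 CPM. Timp1 had the opposite order, at 72.0 CPM in Saa3-led, 168 CPM in Serpinb2-led and 1176 CPM in Ccl24-led cells. Il6 was at 846, 1131 and 219 CPM in these groups. Mmp12, macrophage elastase, was at 17.2, 39.95 and 122 CPM, but 38 members held a UMI of it and 2 held at least as many as the rest together. Fn1 varied little, from 10909 CPM in Ccl24-led to 11504 CPM in Serpinb2-led cells. Median depth was 9892.5 UMIs per Saa3-led, 10294.5 per Serpinb2-led and 11122 per Ccl24-led cell, and all 6 doublet calls fell in Saa3-led cells.

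**Figure D5:**
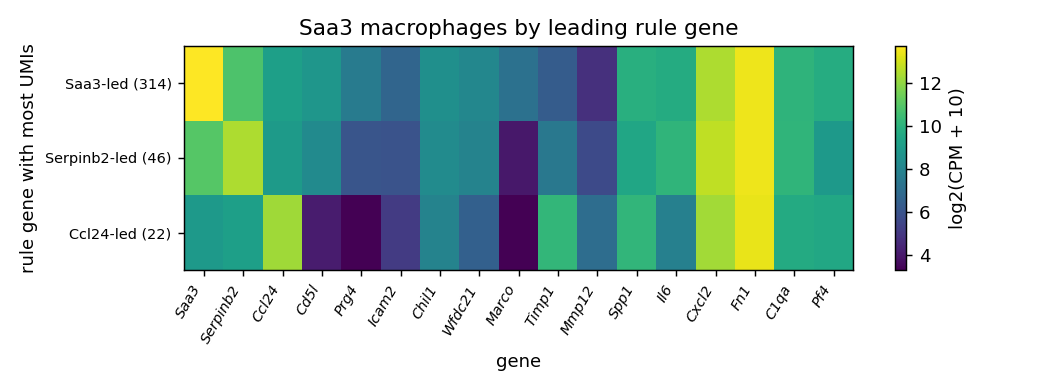
Summed level, as log2 of CPM with 10 added, of 17 genes in Saa3 macrophages grouped by the rule gene with most UMIs (number of cells in brackets). The first 3 genes define the groups. Prg4, Cd5l and Marco are highest in the Saa3-led cells, and Fn1 lies between 10909 and 11504 CPM in these groups.

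C1q transcripts split the members in another way. At least 0.3% of UMIs on C1qa, C1qb and C1qc were found in 171 members, or 34.3%, and Saa3 was at 8690 CPM in members with them and 9561 CPM in those without. Ccl7 was at 434 CPM in members with C1q and 117 CPM in those without, Folr2, a folate receptor of tissue macrophages, at 143 against 36.4 CPM and Cbr2 at 195 against 45.7 CPM. Lyve1, a hyaluronan receptor of some tissue macrophages, was at 115 against 13.9 CPM, with a UMI in 17.0% against 3.98% of cells. Of 3706 genes compared, 21 were at least 2-fold higher in members with C1q, the C1q genes among them, and 8 were lower. Lower genes included Prg4 at 71.1 against 164 CPM, Slc7a2 at 64.2 against 143 CPM and Plac8 at 54.7 against 170 CPM. Over 464 members thinned to 2000 UMIs each, Spearman's rho between 55 pairs of genes, given as a description, ran from -0.16 to 0.43 with a median of 0.05. Il6 with Cxcl2 had the highest, and the 6 pairs of rule genes lay between -0.09 and 0.09. These cells come from the same library.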

How the data were processed

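Counts of UMIs per gene, and in the transplant libraries per antibody, were used as deposited: the authors' count matrices, made with Cell Ranger (per the file headers 6.0.0 in both transplant libraries, 7.1.0 in the naive one; version 6, Seurat 4 and mm10 per the submitters' processing notes), held filtered, unnormalized counts. The study's methods name a 3′ kit and the labels list both 5′ and 3′ kits, so which end of a transcript was read is unsure. Total depth was 28538529 UMIs in 2921 naive cells, 10749100 in 10328 cells at 2 hours and 70750470 in 9016 cells at 3 days.

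The members and the gene lists were chosen with earlier results of these data known. The upper limits of the study's methods (under 6000 genes, under 25000 UMIs) were not applied, and 21 members exceeded them. Doublets were called with Scrublet in scanpy 1.11.5 and kept in the main values. UMIs were summed over the cells of a set and divided by all UMIs of the set. A gene was compared if it had at least 50 UMIs over both sets and was not one of the rule genes, and was counted as higher or lower at a log2 ratio of at least 1 or at most -1 of CPM plus 10. On simulated data for members against other Lyz2 cells (10386 genes, 200 raised by a log2 ratio of 2), the median estimate was 1.59, 85% of raised genes were counted and 0% of the others. The simulated sums were Poisson counts without spread between cells. The 0% therefore does not cover genes such as Marco or Sftpc, whose UMIs lay mostly in a few cells. With 1 library per condition no test was run. Intervals are exact Poisson or Clopper-Pearson intervals (scipy 1.17.1, Python 3.11.15), and an upper limit for 0 UMIs is 3 UMIs over the total.

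Genes named were the rule genes, the 12 largest and 6 smallest ratios among genes with at least 200 UMIs (without ribosomal protein, mitochondrial, immunoglobulin and unnamed model genes), the 6 most abundant genes, the 3 most abundant of each pathway list, list genes past 2-fold with at least 100 CPM, the most abundant gene of each marker list, and Ccl2, Ccl7, Ccl12 and Ccr2. The values of some genes, a gene of the rule among them, are not reported here. Further list and marker genes were named after their values had been seen. Lists not described gave, as summed CPM in members and other Lyz2 cells, 4523 and 3899 for C1q macrophage markers, 34.9 and 64.7 for conventional dendritic cells, 93.3 and 120 for plasmacytoid dendritic cells, 84.2 and 47.4 for basophils and mast cells, 8.59 and 2.22 for eosinophils, 245 and 244 for plasma cells, 29.9 and 22.9 for T cells, 40.7 and 29.8 for NK cells, 1.49 and 60.8 for erythroid cells, 17.4 and 36.7 for endothelium, 18.5 and 447 for epithelium and 2.05 and 1.90 for fibroblasts.

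Alternatives changed the limits of the rule, the rule genes, doublets, the offset, the filter, the total, the thinning of cells, the set compared with and the subtraction of B cell CPM. Comparisons with the remaining Lyz2 cells, with members split by C1q and without 1 group of members were added after seeing the data.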

Additional observations from a re-analysis of the deposited data

Results flagged for a closer look

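Of the cells of the 3-day library that reached the limit for the 4 rule genes, 104 had Lyz2 under 0.3% of UMIs and were used in no comparison; they drew notice because they carried the same transcripts outside the cells compared. They held a median of 4927 UMIs and 0.615% of UMIs on the 4 genes, and 96 of them had a UMI of Lyz2. Saa3 was at 6877 CPM, Itgam at 1713 CPM and Gata6 at 46.7 CPM. Scrublet called 7 of them doublets, or 6.73%. Markers of other cells were present in their sum. Neutrophil markers were at 9271 CPM and B cell markers at 435 CPM, against 1396 and 105 CPM in members, where the rule capped genes of both lists; 17 of the 104 cells were at or over the limit for S100a8 and S100a9. Fibroblast markers were at 2805 CPM against 2.05 CPM in members, mesothelial markers at 252 against 0.187 CPM and basophil and mast cell markers at 873 against 84.2 CPM. What part other cell types had in these cells was not tested.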

How the results depend on the processing

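The number of members stayed between 375 and 565 under the limits and rule genes tried, with 402 at a limit of 0.5%, 565 at 0.2% and 375 without Saa3. Genes at least 2-fold higher numbered 489, and 930 with an offset of 1 CPM and 1074 with B cell CPM subtracted. Genes at least 2-fold lower numbered 435, and 1132 with an offset of 1 CPM, 723 with B cell CPM subtracted and 224 against C1q macrophages alone. A smaller offset enlarges the ratios of low genes by construction; for the other settings the cause was not tested. For 29 of the named genes 22 alternatives gave 638 values, of which 631 did not turn (Cd74 was at 0 with B cell CPM subtracted). These count the setting with no filter on UMIs, which cannot change the value of a single gene. The comparison sets were also run for the 113 named genes at least 2-fold higher or lower, of which 22 turned against C1q macrophages, 2 against Ly6c2/Ccr2 monocytes and 2 against the remaining Lyz2 cells. Those that turned against C1q macrophages include Hp (1.67), Lcn2 (1.10), Vcan (1.10), Chil3 (0.85), Mmp8 (0.75), Ifitm3 (0.65), Mrc1 (-1.14), C1qc (-1.03), Cd63 (-0.95), Il1rn (-0.65), Mmp14 (-0.56), C3ar1 (-0.51), Odc1 (-0.27) and Sdc4 (-0.22), besides Sftpc (0.33), Ly6c2 (0.41), Ccl2 (-0.24), Ccl7 (-0.44) and C1qa (-1.32), all as log2 ratios. The median of classical monocyte markers turned as well (0.63 over the genes with enough UMIs in that pair of sets). The MHC class II median was -0.30 against Ly6c2/Ccr2 monocytes on that basis and 0 with B cell CPM subtracted, by construction, since B cells were above both sets in 11 of the 13 genes. Sftpc also turned against Ly6c2/Ccr2 monocytes (0.26), and Ccr2 against the remaining Lyz2 cells (0.16), a comparison added after seeing the data. Mac2 antibody was higher in members than in the other Lyz2 cells as mean counts per cell (log2 ratio 0.24) but lower as a share of antibody counts (-0.69). No paired analysis was possible because each condition had 1 library. Depth limits single cells most at 2 hours, where the median was 878 UMIs per kept cell.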
